A study of Mus musculus with 4 samples.

Results

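The nuclear receptor genes described here are 37 genes of the family, named in a fixed list, whose chromatin was mapped by ATAC-seq in mouse DN3 thymocytes. Every peak that overlapped a gene's span, or the 20 kb on either side of it, was taken as belonging to that gene. Overlapping peaks of the 4 deposited lists were merged into regions, and 139 of 36224 regions fell into these windows. The thymocytes came from wild-type mice, for which no source used here gives the strain or age. DN3 cells are precursors without CD4 and CD8 at the stage of T cell receptor beta rearrangement. They were flow-sorted and then divided on magnetic beads by the adhesion molecule EpCAM into cells that bound the antibody and cells that ran through, with 2 libraries per fraction. Nothing in the labels ties the libraries to separate mice, so the spread between them may be technical. No treatment was given, and both fractions share the genotype, the tissue and the sort.

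Nuclear receptors are transcription factors that bind DNA through zinc fingers, and many of them are switched by small fat-soluble ligands such as steroids, retinoic acid, thyroid hormone, vitamin D, fatty acids or oxysterols. Many bind as heterodimers with a retinoid X receptor, recruit corepressors without ligand and exchange them for coactivators when ligand binds. In the thymus the family is best known for the glucocorticoid receptor, through which steroid exposure kills immature thymocytes. The NR4A genes are not among the 37 and are given below as part of a comparison list.

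The lists held 24598 to 29030 peaks, and 92 to 111 of them per library lay in the nuclear receptor windows. Those made up 0.381% and 0.383% of the EpCAM-positive lists and 0.374% and 0.382% of the EpCAM-negative lists. The 95% exact intervals ran from 0.302% to 0.465% over the 4 libraries and overlapped. No source used here gives the reads per library. The background solved from the peaks, a relative measure of depth, was 0.383 to 0.388 fragments in the EpCAM-positive and 0.286 to 0.290 in the EpCAM-negative libraries. The start regions of 6 of 10 T lineage markers were called in all 4 libraries (Il2ra, Notch1, Bcl11b, Gata3, Cd3e and Lck), those of Ptcra and Rag2 in fewer, and none was found for Rag1 and Tcf7. Among the markers of other cell types, Ebf1 of the B lineage, Cebpa of myeloid cells and Aire of thymic epithelium also had one in all 4 libraries, and the other 20 did not. Of the 33 shared regions of the T lineage markers, 3 ranked higher in EpCAM-negative cells by the rule given below, against 4.76% of all shared regions. In EpCAM-positive cells 0 ranked higher, against 4.09%. The 3 lay 5533 bp outside Il2ra (34 and 45 summit fragments against 56 and 54), 9680 bp outside Notch1 (37 and 47 against 68 and 63) and at a start of Gata3 (24 and 28 against 39 and 27). Of the 46 regions of the T lineage markers called in at least 2 libraries, 2 were called in the EpCAM-negative pair alone, against 2.45% of all such regions. They were a start region of Ptcra (14 and 16) and a weak region near Rag1 and Rag2 (7 and 4). In the EpCAM-positive pair alone 0 were called, against 6.27%. Of other markers, a region inside Pax5 of the B lineage ranked higher in EpCAM-positive cells (38 and 31 against 16 and 17), 2 regions at Tbx21 of innate lymphoid cells and 1 near Krt8 of epithelium were called in the EpCAM-positive pair alone, and 1 near Itgam of myeloid cells in the EpCAM-negative pair alone. The part of these cells in the results below was not tested. An open start alone does not show that a gene is transcribed.

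Most accessible regions at nuclear receptor genes were called in all 4 libraries or in a single one, and 6 were called in both libraries of 1 fraction alone. Of the 139 regions, 64 were called in all 4 libraries (46.0%, 95% exact interval 37.6 to 54.7), against 46.3% of all regions of the genome. A further 45 were called in 1 library (32.4%, against 29.8% of all regions). Another 16 were called in 3 libraries, against 3927 of all 36224 regions, and 8 in exactly 1 library of each fraction. EpCAM-positive-only regions, called in both EpCAM-positive and neither EpCAM-negative library, numbered 3 of the 94 regions called in at least 2 libraries (3.19%, interval 0.663 to 9.04), against 6.27% over the genome. EpCAM-negative-only regions numbered 3 as well (3.19%, with the same interval), against 2.45% over the genome. The lists did not end at the same strength. The weakest peaks of EpCAM-positive replicates 1 and 2 had a −log10 q of 2.07 and 2.02. Those of EpCAM-negative replicates 1 and 2 had 1.32 and 1.34, so weaker peaks could count as calls there. With a −log10 q of at least 5 required in every list, 2 EpCAM-positive-only and 2 EpCAM-negative-only regions were left. The genome-wide shares were then 6.48% and 1.97%. The 8 regions of mixed pairs made up 8.51%, against 9.9%, with 2 for each of the 4 possible pairs. The genome-wide share lay inside the interval of the nuclear receptor windows wherever an interval is given. These counts moved when a library was left out, after which 1 call stands for its fraction. Dropping EpCAM-positive replicate 1 gave 22 regions of the EpCAM-positive and 5 of the EpCAM-negative fraction alone, and dropping its replicate 2 gave 13 and 5. Dropping EpCAM-negative replicate 1 gave 6 and 12, and dropping its replicate 2 gave 12 and 12. The genome-wide shares moved as well, to 24.9% and 5.14%, 19.6% and 6.91%, 11.9% and 13.7%, and 12.5% and 10.8% in the same order. An exact permutation test of 2 against 2 cannot give a two-sided p under 0.333, so no region was tested by itself.

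**Figure D1:**
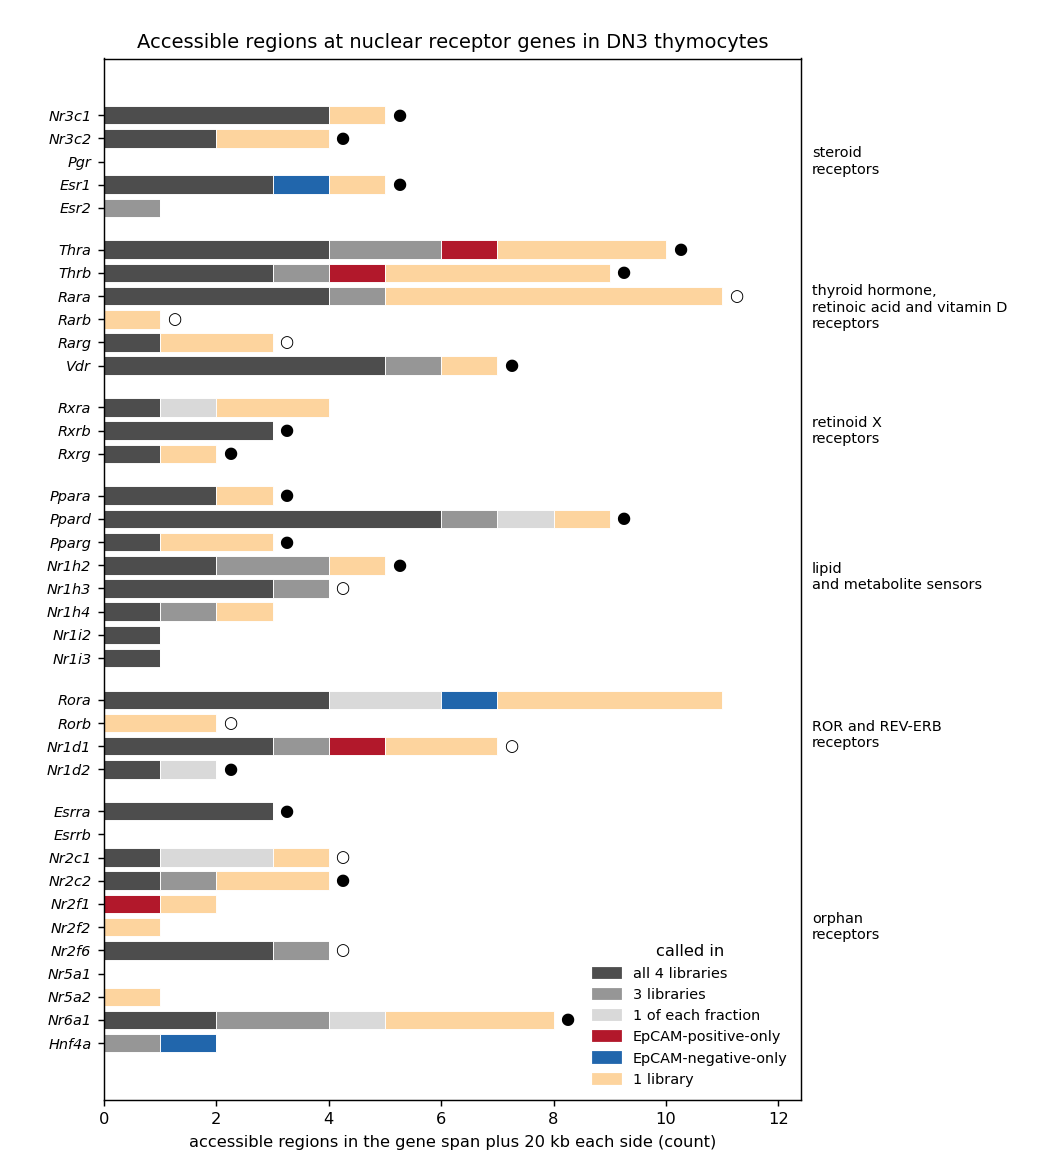
Accessible regions per nuclear receptor gene, grouped by kind of ligand, with the count on the x axis and colours for the libraries that called them. A filled circle marks a gene with a start region called in all 4 libraries (16 genes) and an open circle one with a start region in fewer (8 genes). Ppard had 6 regions in all 4 libraries, and Pgr, Esrrb and Nr5a1 had no region.

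The count of regions per gene ran from 0 to 11, with a median of 3. Of the 37 genes, 34 had at least 1 region, 27 had at least 1 called in all 4 libraries, and Pgr, Esrrb and Nr5a1 had none. Those 3 encode the progesterone receptor, an oestrogen-related receptor of pluripotent cells and steroidogenic factor 1 of the adrenal and gonads. The shares of all protein-coding genes with a region in such a window were not computed, so these gene counts have no background. The windows reach into neighbouring genes: 37 of the 139 regions, and 28 of the 64 shared ones, lay nearest to a protein-coding gene other than the receptor. Of the shared regions, 16 lay at a receptor's start, 18 elsewhere inside a receptor gene and 30 outside. The 20 kb limit falls between close neighbours at Nr1d1. A region 19888 bp from that gene counts for it and was called in 1 library with 12 summit fragments, while one 20302 bp away does not count, with summit fragments of 37 and 30 (EpCAM-positive) and 30 and 33 (EpCAM-negative). The gene spans of Thra and Nr1d1 overlap on chromosome 11, and 6 regions were in more than 1 receptor's window.

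Start regions, whose strongest summit lay within 1000 bp of an annotated start of transcription, were called in all 4 libraries for 16 of the 37 genes (43.2%, 95% exact interval 27.1 to 60.5), against 43% of 21883 protein-coding genes. Another 8 genes (21.6%, interval 9.83 to 38.2) had a start region in fewer libraries, against 10.3%, and 13 (35.1%, interval 20.2 to 52.5) had none, against 46.8%. For Thra, Nr3c1 and Nr5a1 no start was used here and both gene ends were taken in its place. The 16 genes spanned a wide range of strength. Values below are summit fragments, the pileup at the highest point of a peak solved from the authors' fold and p-value. They are given for EpCAM-positive replicates 1 and 2 and then EpCAM-negative replicates 1 and 2, and they are not adjusted for depth.

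Esrra encodes ERRalpha, an orphan receptor that drives mitochondrial genes, and its region on chromosome 19 (mm10, 6921695 to 6922404) had 114, 159, 124 and 143 summit fragments. Nr1d2, the gene of the clock repressor REV-ERBbeta, had 158, 147, 135 and 91 on chromosome 14 (18238185 to 18239426). Nr3c1, the glucocorticoid receptor gene, had 134, 93, 101 and 90 on chromosome 18 (39518995 to 39519943). These 3 were above the 90th percentile of all shared regions in every library, and in each of them the percentiles of the fractions overlapped, although the unadjusted values of Nr1d2 did not. Nr1h2, encoding the oxysterol receptor LXRbeta, had 106, 87, 68 and 68. Nr2c2, the gene of the orphan receptor TR4, had 69, 80, 69 and 69, nearly the same in every library. Rxrb, encoding a heterodimer partner of many of the others, had 72, 71, 60 and 56 on chromosome 17 (34031486 to 34032306).

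Weaker start regions followed at 10 genes. Ppard, encoding a fatty acid receptor, had 57, 62, 31 and 37. Its percentile among all shared regions was 76.8 and 79.3 against 59.9 and 68.6, a gap of 8.14 points between the closest libraries. Nr6a1, a germ cell factor gene, had 44, 41, 19 and 30, and Thrb, encoding a thyroid hormone receptor, had 26, 43, 33 and 19. Nr3c2, the mineralocorticoid receptor gene, had 28, 38, 17 and 25, and the oestrogen receptor gene Esr1 had 26, 29, 26 and 22. The vitamin D receptor gene Vdr had 17 in every library. Thra, the second thyroid hormone receptor gene, had 20, 15, 17 and 18, and Ppara 16, 19, 13 and 9. Pparg, known from fat cells, had 11, 11, 7 and 6, and Rxrg had 8, 8, 7 and 9, near the lowest shared regions. Neither was shared when a −log10 q of at least 5 was required, and that of Pparg was also lost when peaks had to overlap by 50%. In 8 of the 16 start regions both EpCAM-positive libraries lay above both EpCAM-negative ones in unadjusted summit fragments, as they did in 32 of the 64 shared regions of these windows and in 49.4% of all shared regions. The background was 1.34 times higher in the EpCAM-positive mean, so in unadjusted values fraction and depth cannot be told apart.

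**Figure D2:**
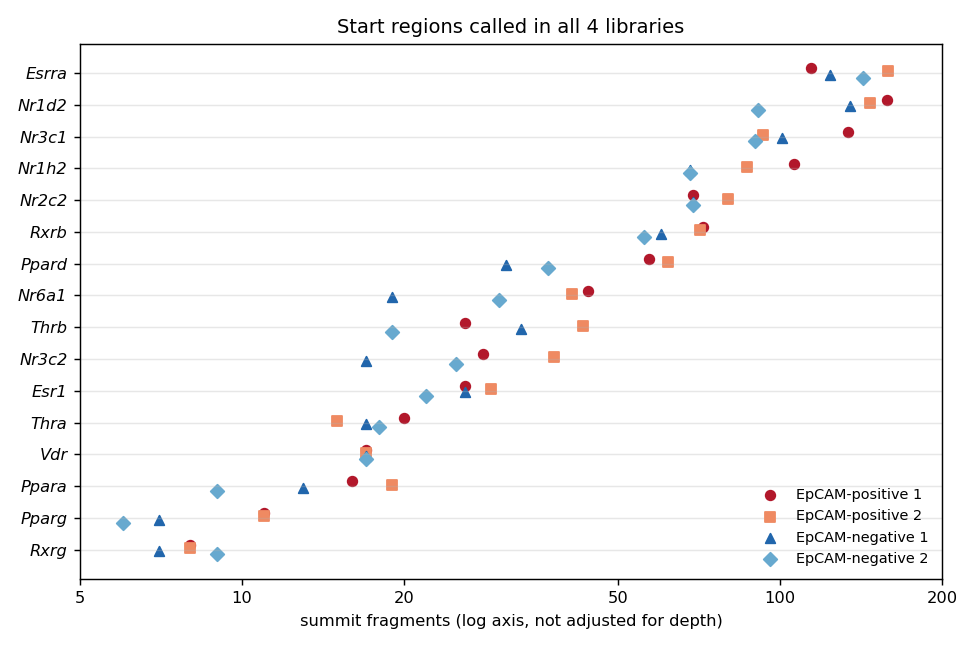
Summit fragments (x axis, log scale) of the start region of each of the 16 nuclear receptor genes that had one in all 4 libraries, with 1 point per library. Esrra, Nr1d2 and Nr3c1 stand at 90 to 159, and Pparg and Rxrg at 6 to 11. Points are not adjusted for depth.

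The sequences before the starts are shown for the genes that had a start region called in 1 fraction alone (Thrb) or a shared one with the highest −log10 q among genes in the promoter table. They are the 250 bases upstream of the start in RefSeq GRCm38.p6, read 5′ to 3′ on the strand of the gene. Capitals mark matches to the motifs listed after them.
Thrb, chr14:17660710-17660959, plus strand: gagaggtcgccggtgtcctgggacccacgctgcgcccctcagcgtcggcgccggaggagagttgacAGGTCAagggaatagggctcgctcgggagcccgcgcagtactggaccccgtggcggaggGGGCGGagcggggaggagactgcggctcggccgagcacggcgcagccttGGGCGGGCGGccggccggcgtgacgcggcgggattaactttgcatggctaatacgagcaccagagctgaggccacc
Esrra, chr19:6921809-6922058, minus strand: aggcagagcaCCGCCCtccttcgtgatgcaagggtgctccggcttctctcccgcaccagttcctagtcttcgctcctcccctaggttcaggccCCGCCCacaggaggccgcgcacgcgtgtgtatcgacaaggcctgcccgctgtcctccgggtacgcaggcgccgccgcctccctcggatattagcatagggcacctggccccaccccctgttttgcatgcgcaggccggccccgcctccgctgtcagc
Nr1d2, chr14:18239107-18239356, minus strand: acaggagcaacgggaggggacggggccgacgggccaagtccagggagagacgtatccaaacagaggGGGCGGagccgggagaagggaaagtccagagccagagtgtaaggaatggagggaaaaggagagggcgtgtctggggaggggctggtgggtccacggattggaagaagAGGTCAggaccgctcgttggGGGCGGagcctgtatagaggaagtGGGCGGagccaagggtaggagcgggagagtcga
Nr1h2, chr7:44553966-44554215, minus strand: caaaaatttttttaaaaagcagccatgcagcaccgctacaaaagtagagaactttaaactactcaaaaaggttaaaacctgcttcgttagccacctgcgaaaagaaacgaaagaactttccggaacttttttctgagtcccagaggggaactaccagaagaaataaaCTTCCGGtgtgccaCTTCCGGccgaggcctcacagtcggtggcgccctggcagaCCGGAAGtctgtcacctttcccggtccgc
Nr2c2, chr6:92092183-92092432, plus strand: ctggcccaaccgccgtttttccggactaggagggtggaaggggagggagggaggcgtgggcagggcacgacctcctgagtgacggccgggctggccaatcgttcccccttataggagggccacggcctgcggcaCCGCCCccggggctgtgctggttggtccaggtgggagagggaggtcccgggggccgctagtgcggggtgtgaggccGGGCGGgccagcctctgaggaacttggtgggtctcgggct
Ppard, chr17:28232504-28232753, plus strand: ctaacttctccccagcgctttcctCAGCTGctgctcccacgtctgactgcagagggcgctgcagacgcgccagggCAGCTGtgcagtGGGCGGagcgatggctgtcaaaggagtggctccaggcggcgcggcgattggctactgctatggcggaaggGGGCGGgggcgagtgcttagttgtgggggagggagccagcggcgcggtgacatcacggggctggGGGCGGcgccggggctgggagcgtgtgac
The Thrb sequence holds the nuclear receptor half-site AGGTCA 184 bases before the start, and the Nr1d2 sequence holds it 77 bases before. The Thrb half-site lay in no peak. It stands between the shared start region, which ended at 17660722, and the EpCAM-positive-only region, which began at 17660832. The Nr1h2 sequence has 3 matches of the ETS motif CCGGAAG, beginning 83, 69 and 29 bases before the start, and it lacks the Sp/KLF motif GGGCGG that the other 5 carry. Ppard has 3 GGGCGG matches and 2 of the E protein motif CAGCTG, beginning 226 and 175 bases before the start. A match is a run of letters and not a measured binding site.

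The motif search covered 52 promoter windows of 34 of the genes, each from 250 bases before to 50 after a start, on both strands. Windows of close starts overlap, as at Rara, so 1 site can count in more than 1 window. AGGTCA was in 11 of the 52 windows (21.2%), against 16.3% of 32851 windows of all genes in the table. Its genes were Nr1d2, Nr1h4, Nr5a2, Nr6a1, Pparg, Rara, Rarg, Rxra, Rxrg and Thrb. The direct repeats DR1, DR4 and DR5, which are pairs of it with 1, 4 or 5 bases between, were in 0 of the 52, and in 13, 5 and 3 of the 32851. The extended sites TAGGTCA and TCAAGGTCA, which also contain it, were in 0 of the 52, and in 2.61% and 0.423% of all windows. The steroid half-site AGAACA was in 5 windows (9.62%, against 18.97%) and the steroid palindrome, which contains it, in 0 (3 of all windows). GGGCGG was in 22 (42.3%, against 35.7%) and CAGCTG in 10 (19.2%, against 16.3%). The E-box CACGTG was in 5 windows of 4 genes (9.62%, against 7.15%) and the RUNX motif TGTGGT in 5 windows (9.62%, against 16.8%). CCGGAAG was in 2 (3.85%, against 8.86%), both in windows with peaks, at Nr1h2 and Rxrb. The NRF1 motif was in 1, at Ppara (1.92%, against 0.971%), and the TATA motif TATAAA in 4 (7.69%, against 13.6%).

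The promoter windows were also counted for CpG dinucleotides, which are dense in promoters of broadly used genes. The 10 windows with a peak in all 4 libraries held a median of 20 CpG dinucleotides (10 to 37), the 13 with a peak in 1 to 3 libraries a median of 20, and the 29 with none a median of 7. Over all genes the medians were 23, 17 and 4. Some windows without a peak were CpG-rich. The first start of Rxra had 55, a start of Pparg 44, the Rora start 28 and a start of Nr2f1 23, all without a peak in any list, although the shared start region of Pparg began just beyond that window. At Nr2f6, encoding an orphan receptor, a window with 53 had a peak in 3 libraries.

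**Figure D3:**
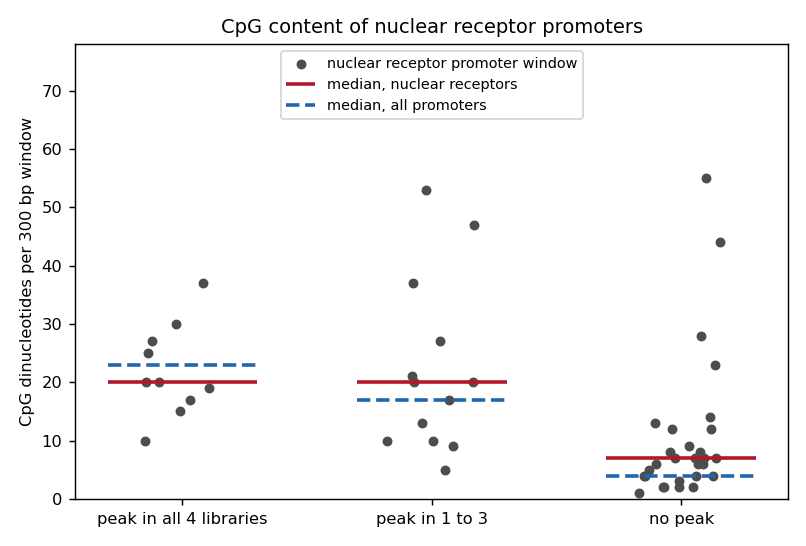
CpG dinucleotides (y axis) in the 52 promoter windows of nuclear receptor genes, by the number of libraries with a peak in the window, with 1 point per window and side shifts for visibility. The red line is their median (20, 20 and 7) and the dashed blue line that of all promoter windows (23, 17 and 4).

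Among the steroid receptors, Nr3c1 had 4 regions called in all 4 libraries, all nearest to the gene itself. Beside the start region, a pair of adjoining regions lay inside the gene: 79, 95, 72 and 72 summit fragments at 39490765 to 39491631, and 57, 54, 57 and 39 at 39489529 to 39490701. A weaker one at 39496563 to 39497231 had 15, 13, 13 and 17. None of the 4 met the rank rule given below. Esr1 had 3 shared regions in its first part, at its start and 7460 and 20417 bp downstream, the last with 44, 27, 22 and 21. It also had an EpCAM-negative-only region 77100 bp downstream of a start (chromosome 10, 4787173 to 4787424), with 10 and 9 summit fragments. The nearest EpCAM-positive peak was 154357 bp away. Esr2, the gene of the second oestrogen receptor, had 1 region, called in 3 libraries and 19444 bp outside the gene. Nr3c2 had a second shared region 3240 bp upstream of its start (40, 37, 31 and 15).

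The retinoic acid receptor genes differed from each other. Rara, encoding the alpha receptor, had 11 regions and 4 in all 4 libraries. The strongest region inside it, on chromosome 11 (98941531 to 98942669), had 148, 188, 91 and 99 summit fragments on a high local background of 18.1, 20.5, 11.0 and 11.2, and lay 2389 bp downstream of the nearest start. No start region of Rara was shared. At its starts each of 3 libraries had a peak of its own that overlapped no other: EpCAM-positive replicate 2 at 98937664 to 98937913 (51), EpCAM-positive replicate 1 at 98939391 to 98939630 (45) and EpCAM-negative replicate 2 with 16 at the last start. The first pair stood on a background of 18.9 and 17.5, with folds of only 2.61 and 2.48. Rarg, encoding the gamma receptor, had weak start peaks in EpCAM-positive replicate 2 alone (9 in each of 2 peaks), and its shared region lay nearest to the integrin gene Itgb7. Rarb had a single peak, of 4 summit fragments, in EpCAM-negative replicate 2. The retinoid X receptor gene Rxra had no start region but an inner region 3448 bp from a start, called in all 4 libraries (29, 54, 41 and 39).

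At the thyroid hormone receptor genes, Thrb had an EpCAM-positive-only region over a start. It lay on chromosome 14 (17660832 to 17661271), 239 bp downstream of the start, with 16 summit fragments in each EpCAM-positive library. The shared start region of Thrb (17660130 to 17660722) ended close by, and an EpCAM-negative peak lay 196 bp away, so both fractions had a peak beside this start. A second inner region of Thrb, 20510 bp downstream of a later start (18001964 to 18002531), ranked higher in EpCAM-negative cells, as given below. At Thra, a region inside the gene at 98747290 to 98747630 had 37, 30, 30 and 33. Vdr had 5 shared regions. The strongest, 4866 bp beyond the end of the gene (97849319 to 97849901), had 76, 77, 55 and 51, and 2 others lay nearest to Hdac7.

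Rora encodes RORalpha, known from innate lymphoid cells and the clock, and spans 734843 bp of chromosome 9. It had no peak in any library at the 1 start listed for it, and other starts of the gene were not examined. Yet 3 regions far inside the gene were called in all 4. They lay 302679 bp (68956222 to 68957075; 36, 41, 25 and 29), 380862 bp (69034175 to 69034937; 59, 57, 44 and 52) and 635979 bp (69289528 to 69290143; 25, 20, 13 and 23) downstream of the start. An EpCAM-negative-only region 511690 bp downstream (69165311 to 69165619) was weak, with 7 and 10 summit fragments, and 4 more regions of the window were called in 1 library. Rorb had start peaks in 2 libraries, 1 of each fraction, that did not overlap.

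Nr1d1, encoding the clock repressor REV-ERBalpha, had a start region in 3 libraries (20 and 16 in the EpCAM-positive pair, 14 in EpCAM-negative replicate 1). Inside the gene, 1337 bp downstream of the start (98773778 to 98774338), a shared region had 17, 17, 27 and 25 summit fragments. Upstream, 8010 bp before the start, lay an EpCAM-positive-only region (98783228 to 98783504) with 16 and 18, in a window shared with Thra. The nearest EpCAM-negative peak was 5234 bp away. The inner site thus had more fragments in the EpCAM-negative pair, and the upstream one was called in the EpCAM-positive pair alone. Nr1d2, in contrast, had its strong start region and 1 region 2816 bp upstream called in 1 library of each fraction (34 and 38).

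**Figure D4:**
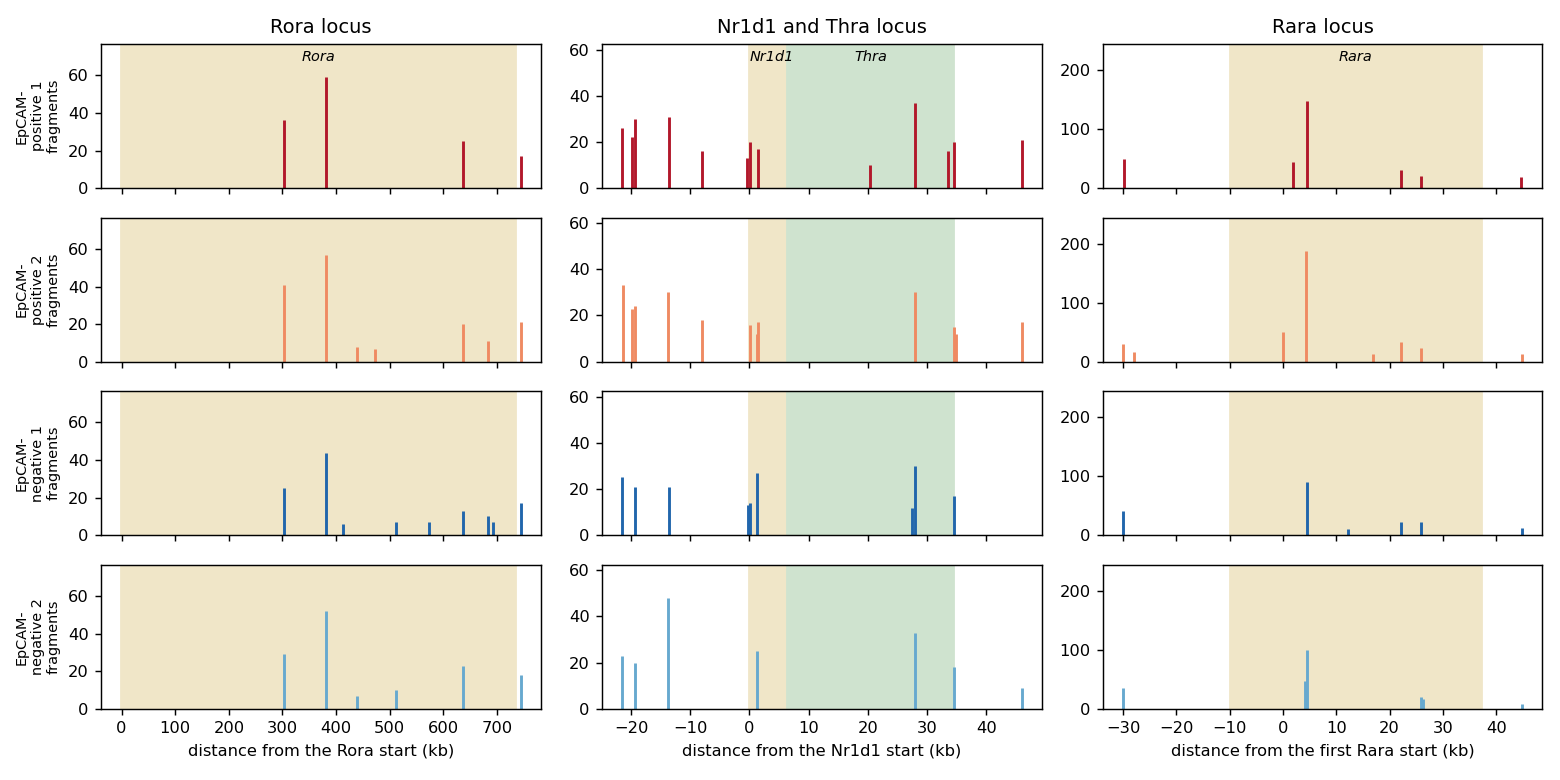
Peaks of each library (rows) at Rora, at Nr1d1 with Thra, and at Rara (columns). The x axis is the distance in kb from the Rora start, the Nr1d1 start and the first Rara start, along the direction of transcription, lines mark peak summits with their height in summit fragments, and shading marks the gene spans. Rora has no peak at the start listed for it and its tallest peak 380862 bp downstream. Rara has its tallest lines in an inner region 2389 bp downstream of the nearest start, which is not a start region.

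Of the lipid and metabolite sensors, Ppard had 6 shared regions of 9, the most of the 37 genes within 20 kb. With the gene span alone, or with only regions nearest to the gene itself, Ppard kept 2, fewer than the 4 of Nr3c1. An inner region 24175 bp downstream of its start (28256484 to 28257494) had 106, 117, 70 and 73. The other 4 beside the start lay nearest to Def6 and Fance. Nr1h3, encoding LXRalpha, had a start region in 3 libraries (14, 22 and, in EpCAM-negative replicate 2, 10). A shared region at the upstream (5′) end of the annotated gene span, 7685 bp upstream of the nearest listed start, had 33, 37, 23 and 31. No start is listed at that end, so it did not count as a start region. The bile acid receptor gene Nr1h4 had a weak inner region in 3 libraries, and the shared regions in the windows of Nr1h4, Nr1i2 and Nr1i3, genes known from liver and gut, lay nearest to Gas2l3, Gsk3b and Apoa2. That in the Nr1i2 window was not shared with 50% overlap, a −log10 q of at least 5, lists of equal length or peaks scaled at a −log10 p of at least 6.47.

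Of the 11 orphan receptors, 3 had a start region in all 4 libraries, 2 in fewer and 6 in none. Hnf4a, a liver and gut factor, had a weak region in 3 libraries and an EpCAM-negative-only region 14597 bp beyond the gene (chromosome 2, 163587376 to 163587923) with 9 and 11 summit fragments. The peaks of that region overlapped only at their edges, with replicate 1 at 163587694 to 163587923 and replicate 2 at 163587376 to 163587706. Nr2f1, known from neural development, had an EpCAM-positive-only region inside the gene (chromosome 13, 78194987 to 78195512), 1143 bp from a start, with 13 and 8. There too the peaks overlapped only at their edges, with replicate 1 at 78195202 to 78195512 and replicate 2 at 78194987 to 78195252. Nr2f2 and Nr5a2 had 1 peak each, in 1 EpCAM-positive library. Nr2c1, encoding TR2, had start peaks in every library, but they formed 3 adjoining regions, 2 of them of 1 library of each fraction (16 and 10, and 12 and 7) and 1 of EpCAM-positive replicate 2 (11), so none counts as shared. Nr2f6 had a start region in 3 libraries (13, 13 and 10), while the high peaks of its window, up to 194 summit fragments, lay nearest to Ocel1 and Use1. Of the 6 regions called in 1 fraction alone, those of Esr1 and of Thra with Nr1d1 held under all 6 alternatives counted here. Those of Rora and Hnf4a held under 5, Thrb under 3 and Nr2f1 under 1. The 6 changed the merging, thresholds, list length, depth (with each of 2 minimums) and absence rule, and not the window or the libraries. With gene spans alone, the regions of Thra with Nr1d1 and of Hnf4a, which lay outside the genes, were lost. With peaks scaled to a common background and a −log10 p of at least 6.47, 1 EpCAM-positive-only region was left, that at Nr1d1 and Thra.

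To compare the fractions at shared regions without the depth, each library ranked the same 16761 regions called in all 4 libraries by summit fragments. A region counted as higher in a fraction when both its libraries stood at least 10 percentile points above both of the other fraction. Of the 64 shared nuclear receptor regions, 3 (4.69%, 95% exact interval 0.977 to 13.1) ranked higher in EpCAM-negative cells, against 4.76% of all shared regions. None ranked higher in EpCAM-positive cells (interval 0 to 5.6), against 4.09%. Both background shares lay inside these intervals. The 3 regions were the inner Nr1d1 region (percentiles 22.02 and 19.8 against 53.1 and 50.5), the inner Thrb region (26.9 and 36.0 against 58.3 and 64.8; 19, 24, 30 and 34 summit fragments) and a region 8591 bp upstream of Ppard on chromosome 17 (28223714 to 28224396), nearest to Def6 (57.3 and 48.9 against 80.2 and 74.3; 36, 31, 52 and 43). In these 3, unadjusted summit fragments were higher in the EpCAM-negative libraries, and the background of those libraries was lower. The part of depth in these 3 was not tested. The median difference in percentile, EpCAM-positive minus EpCAM-negative, was 0.149 over the 64 regions, with 32 above and 32 below 0, and 0.073 over all shared regions. The counts depend on single libraries. When EpCAM-negative replicate 1 was dropped, 7 ranked higher in EpCAM-positive cells and 6 in EpCAM-negative cells, and when its replicate 2 was dropped the counts were 4 and 3. Dropping EpCAM-positive replicate 1 gave 4 and 8, and dropping its replicate 2 gave 1 and 4. Genome-wide, each fraction's share then lay between 9.02% and 10.8%.

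**Figure D5:**
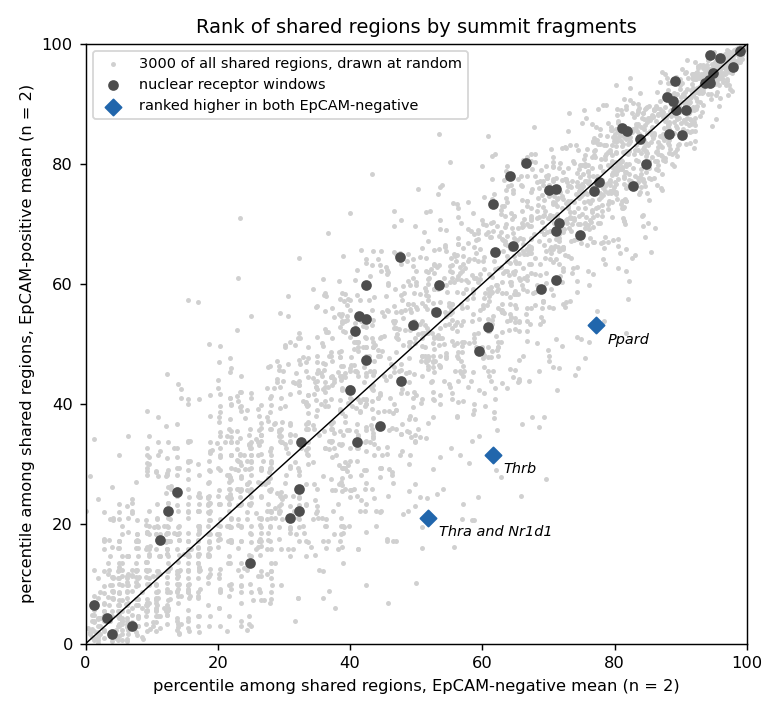
Percentile of shared regions by summit fragments, EpCAM-negative mean on the x axis and EpCAM-positive mean on the y axis (n = 2 libraries each). Dark points are the regions of nuclear receptor windows, grey points 3000 of all shared regions and the line marks equal ranks. The 3 blue diamonds, at Nr1d1 with Thra, Thrb and Ppard, rank at least 10 points higher in both EpCAM-negative libraries.

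The proteins that work with nuclear receptors, and the genes they control, were counted in the same way. Start regions called in all 4 libraries were found for 8 of 10 corepressor genes, among them Ncor1 and Hdac3, for 9 of 12 coactivator genes, among them Ncoa1, Crebbp and Ep300, and for 6 of 6 genes of receptor chaperones. Of 22 genes that make, carry or break down the ligands, 5 had one: Rdh10, Rdh11 and Dhrs3 of retinoid metabolism, Cyp11a1 of steroid synthesis and Ch25h of oxysterol synthesis. Of 19 target genes, 13 had one, among them Tsc22d3, Fkbp5, Abca1 and Arntl. Among 11 other nuclear receptors, Nr4a1 and Nr4a3 had one. Fkbp5 and Dhrs3 are each in 2 of these lists. The background for these counts is the 43% of protein-coding genes given above.

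Regions called in 1 fraction alone lay near some of these genes. The target gene list held 6 regions of the EpCAM-positive pair and 3 of the EpCAM-negative pair among 62 regions called in at least 2 libraries, against background shares of 6.27% and 2.45%. Dbp, a clock output gene, held the strongest, at a start and 835 bp outside the gene (50 and 48 summit fragments) and inside it (40 and 41). Dbp also had 4 regions called in all 4 libraries, among them a start region, so both fractions had a peak at its start. Arntl, whose product BMAL1 drives Nr1d1, had an EpCAM-positive-only region inside the gene (9 and 13), and its shared start region ranked higher in the EpCAM-positive libraries (percentiles 50.3 and 57.4 against 38.4 and 39.1). Of the 39 shared regions of target genes, 2 ranked higher in EpCAM-positive cells, at Arntl and Abcg1, and 1 in EpCAM-negative cells, at Zbtb16, against backgrounds of 4.09% and 4.76%. Abca1, Srebf1 and Tgm2 also had EpCAM-positive-only regions, and Klf9, Srebf1 and Tgm2 EpCAM-negative-only ones. The Srebf1 regions of the opposite fractions lay side by side on chromosome 11, at 60185143 to 60185551 (EpCAM-positive) and 60185875 to 60186098 (EpCAM-negative). Ligand genes had 3 regions of the EpCAM-positive pair alone and 1 of the EpCAM-negative pair alone among 33, including one near Cyp27a1 (10 and 12) and the start region of Dio2 (10 and 9, EpCAM-negative). Of the 22 shared regions of the ligand genes 4 ranked higher in EpCAM-positive cells and 0 in EpCAM-negative cells, against the same backgrounds. The 4 lay at starts of Rdh11, Cyp11a1 and Ch25h and 7523 bp outside Crabp2. Ranked higher in EpCAM-positive and then EpCAM-negative cells were 1 and 2 of 28 for coactivators and 1 and 2 of 36 for corepressors. For chaperones these counts were 0 and 0 of 14, and for the other nuclear receptors 0 and 1 of 16. At Cyp11a1 the start region had 49 and 35 summit fragments against 21 and 19, and at Ch25h 25 and 23 against 13 and 14. Coactivators had 3 and 0 among 42 (Ncoa2, Ncoa7 and Ppargc1a), corepressors 2 and 1 among 56 (Nrip1 and Gps2, against Gps2) and chaperones 3 and 0 among 22 (2 at Ptges3 and 1 at Stip1). The other nuclear receptors had 0 and 0 among 21. The Gps2 regions of the opposite fractions also lay side by side on chromosome 11, at 69894829 to 69895167 (EpCAM-positive) and 69895244 to 69895524 (EpCAM-negative).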

How the data were processed

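ATAC-seq was measured in 4 libraries, 2 of EpCAM-positive and 2 of EpCAM-negative DN3 thymocytes, grouped by the titles in the labels. According to the submitters' processing notes, the tools included Bowtie2, MACS3, Picard, SAMtools and Trim Galore, and the build was mm10 (GRCm38). Whether duplicates were removed or reads shifted for the transposase, and with which versions and settings, is stated in no source used here. The deposited files hold 1 list of narrow peaks per library. Each gives the authors' display score, fold enrichment (a ratio over local background), −log10 p and −log10 q and the summit position, which is the other measured column deposited. These belong to single peaks and were used to describe, rank or filter them. The authors' p-value and fold gave the summit fragments and local background, taking the fold as summit over background with a pseudocount of 1 and the p as a Poisson tail. A solution within 0.01 of the −log10 p was found for 100% of peaks. Solved values, merging and ranks were tested on simulated data. For the solved values those data were made with the same formula, at backgrounds below the highest ones here. That test checks the code and not whether the formula holds for the deposited peaks.

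Peaks of the autosomes and sex chromosomes that shared 1 bp were merged. The 37 genes, the comparison lists, their grouping by ligand and the rules were chosen with earlier results of these data known. Gene spans came from RefSeq GRCm38.p6, in which all 37 matched, and starts, strand and promoter sequences from its promoter table, in which 34 matched. Positions were not assigned to exons or introns. The nearest gene is the protein-coding gene, within 100000 bp, whose span is nearest to a region's strongest summit. No p-values were computed. Intervals are exact Clopper-Pearson at 95% and cover counting error only. Genes named with values were those with a region in 1 fraction's pair alone, a shared region ranked higher in 1 fraction, or a start region in all 4 libraries, the 6 with most shared regions, and those with no peak. Other genes and regions were described by counts, and some were chosen with their values in view, among them the peaks at the starts of Rara, Nr1d1, Nr1h3, Nr2c1 and Nr2f6. Promoters were printed for a start region found in 1 fraction alone or with the highest −log10 q, up to 6. Alternatives changed the merging, thresholds, list length, depth, window, absence rule, start distance, ranking, pairing and libraries. Python 3.11.15, pandas 2.3.3 and SciPy 1.17.1 were used. Results for some genes of the comparison lists are not reported here.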

Additional observations from a re-analysis of the deposited data

How the results depend on the processing

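The count of regions called in all 4 libraries was 64, and 34 with gene spans alone, 102 with 50 kb each side and 36 when only regions nearest to the receptor were kept, a choice added after seeing the data. EpCAM-positive-only regions fell from 3 to 1 with peaks scaled to the lowest background, at a common −log10 p of at least 6.47. That minimum replaced a first one of 4.38 after the first result had been seen. Over the genome the 2 minimums gave 794 and 1570 EpCAM-positive-only and 861 and 634 EpCAM-negative-only regions, in place of 1594 and 623, and with the first one the nuclear receptor windows held 2 and 3. Regions ranked higher in EpCAM-positive cells were 1 by fold enrichment and 2 with a gap of 5 points, in place of 0, and those ranked higher in EpCAM-negative cells were 5 by −log10 p, in place of 3. Leaving out 1 library at a time, after which its fraction needs 1 call, gave 66 to 73 regions called in all libraries left, 6 to 22 EpCAM-positive-only regions (22 without EpCAM-positive replicate 1), 5 to 12 EpCAM-negative-only regions, 16 to 18 genes with a start region in all, and 1 to 7 and 3 to 8 regions ranked higher in the EpCAM-positive and EpCAM-negative fraction. The other 48 recomputed totals stayed within 1.5 times the reported one. Of the recomputed counts of shared regions of single genes, 268 did and 56 did not. Both fractions have replicates 1 and 2, but nothing in the labels says that the numbers pair the libraries. With a replicate block, added after seeing the data, in which percentiles were compared within a number, 1 region ranked higher in EpCAM-positive cells, the start region of Ppard, and 3 in EpCAM-negative cells, against 6.58% and 7.09% of all shared regions. Regions called in 1 fraction alone had 7 to 18 summit fragments, and scaling to the lowest background at the higher minimum left 1 of 3 EpCAM-positive-only and all 3 EpCAM-negative-only ones.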
